A study of Rattus norvegicus with 24 samples.

Results

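The comparison was of dorsal root ganglia (DRG) from rats that walked in shallow water after a contusion of the spinal cord (CONT SCI + SWW) with DRG from contused rats that did not exercise (CONT SCI). Its members were chosen by the group named in the sample labels, 5 CONT SCI + SWW and 6 CONT SCI samples, 11 of the 24 samples in the series. Each sample was 1 female Sprague Dawley rat, about 8 to 9 weeks old at purchase. Both groups received a contusion of 25 g-cm at T2 and, like all rats of the series, were kept in tiny cages that restricted movement. The CONT SCI + SWW rats began training 2.5 weeks after injury and trained 30 minutes a day, 5 days a week, for 10 weeks, and their DRG were collected 13.5 weeks after injury. The CONT SCI rats had no training and were collected at 11.5 weeks. The other groups were used for reference: CONT SCI + SWIM, which had the same contusion, swam on the same schedule and was collected at 13.5 weeks (n = 5), No SCI, which had neither injury nor exercise and was collected at the time of CONT SCI (n = 4), and TX SCI, which had a complete transection at T2, no exercise and collection at 8.5 weeks (n = 4). The ganglia of T11 to L4 from both sides of a rat were pooled into 1 sample of total RNA.

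DRG hold the cell bodies of the sensory neurons that carry touch, pain and the sense of limb position to the spinal cord, together with satellite glia, Schwann cells, vessel cells and macrophages. An injury at an upper thoracic level spares most of these neurons from direct damage but alters the cord circuits they reach. Exercise that loads or moves the limbs changes the traffic in these neurons, and stepping in shallow water loads the paws more than swimming does.

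The question of the comparison was how DRG differ in gene expression with this training after contusion. Exercise and the time of collection changed together between the groups, so they cannot be told apart, and the labels give no library batch. The deposited matrix pairs no gene names with its Ensembl identifiers, so marker genes of cell types and the planned gene lists could not be examined, and the tissue label was not checked against markers. In whole ganglia, fewer cells of a type and less RNA per cell cannot be told apart.

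The deposited reads counted on genes summed to 28162156, 29995120, 23705038, 20063150 and 28141769 in CONT SCI + SWW replicates 1 to 5. In CONT SCI they summed to between 30462475 and 38370849, with a median of 32731949 (n = 6). Every CONT SCI + SWW library was therefore smaller than every CONT SCI library (exact permutation of samples, two-sided, p = 0.00216, which no split of 5 and 6 samples can go below, and 0.0108 adjusted by Benjamini-Hochberg for 5 library measures). At least 10 counts were present for 14289 to 14828 genes in CONT SCI + SWW and for 14738 to 14957 in CONT SCI (two-sided exact permutation test, p = 0.0108, adjusted 0.0135). The 10 genes with the most counts held 6.55% to 7.05% of the counts in CONT SCI + SWW and 7.40% to 9.05% in CONT SCI (two-sided exact permutation test, p = 0.00433, adjusted 0.0108). The gene with the most counts held 1.48% to 1.67% in CONT SCI + SWW and 1.52% to 2.61% in CONT SCI, which overlapped and did not pass (two-sided exact permutation test, p = 0.0974, adjusted 0.0974). At least 1 count was present for 17085 to 17533 genes in CONT SCI + SWW and 17447 to 17665 in CONT SCI (two-sided exact permutation test, p = 0.0108, adjusted 0.0135). Depth thus moved with the groups. After every library was thinned to 16086670 counts, an alternative chosen after seeing the data, 5953 genes differed between the groups, 2762 higher and 3191 lower, against 6522 at full depth.

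Of 15179 genes tested, 6522 differed between CONT SCI + SWW and CONT SCI (43.0%) when p-values of edgeR's quasi-likelihood test were adjusted by Benjamini-Hochberg and 0.05 was the threshold. Of all genes tested, 2833 were higher in CONT SCI + SWW (18.7%) and 3689 were lower (24.3%). Most of the changes were small. The median log2 fold change was 0.29 among the genes that rose and -0.43 among those that fell, beside a median of 0.00 and lower and upper limits of -0.81 and 0.47 that left out the most extreme 5% of all genes tested on each side. The median standard error of a gene was 0.09.

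The larger changes were mostly falls. A change of at least 0.5 on the log2 scale was reached by 521 genes that rose and 1537 that fell, and a change of at least 1 by 144 and 482. At least 2 was reached by 35 genes that rose and 126 that fell. At least 3 was reached by 3 genes that rose and 57 that fell, falls of at least 4 were found for 32 genes, and no rise reached 4. The number of rises of at least 1 depended on the filter on low counts, with 240 when no filter was applied and 67 among genes with a mean of at least 1 CPM. CPM are read counts scaled to library size, with TMM factors except in the filters on low counts. Many of these large rises were in genes with few reads. Of the 144 rises of at least 1, 81 were in genes with a mean below 0 on the log2 CPM scale, 43 in those from 0 to 2 and 14 in those from 2 to 4. Of the 482 falls of that size, the same classes held 131, 127 and 126, and a further 82 were in genes from 4 to 6.

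The share of genes called was higher, and the error smaller, at middle levels than at low ones. Below 0 on the log2 CPM scale 22.1% of 1626 genes differed, with a median standard error of 0.30, and from 0 to 2 it was 32.8% of 2102. From 4 to 6, 50.2% of 4805 genes differed, with a median standard error of 0.07, and from 6 to 8 it was 50.1% of 2687. Among the 665 genes of at least 8, 43.9% differed, 113 higher and 179 lower. Falls outnumbered rises in each of the 6 classes of level.

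**Figure D1:**
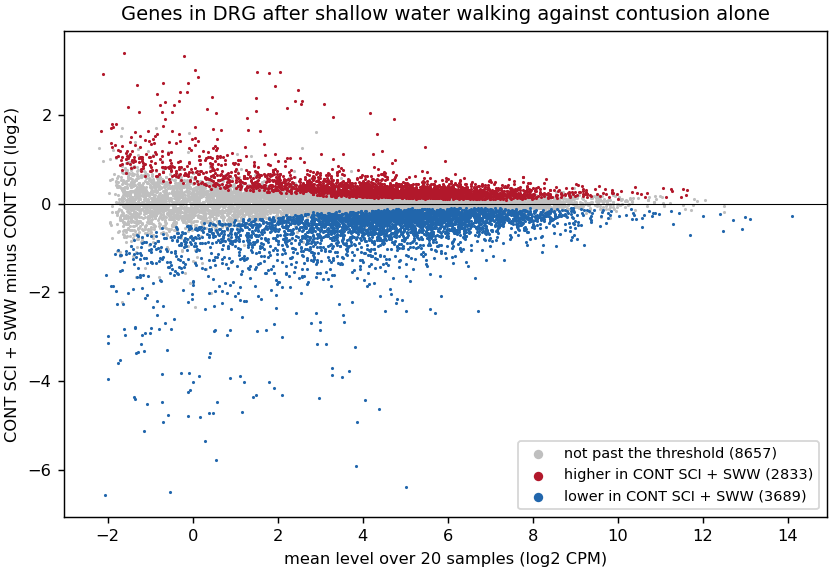
Log2 fold change of CONT SCI + SWW (n = 5) against CONT SCI (n = 6) for each of 15179 genes (points) against its mean level over 20 samples in log2 CPM. Red points are the 2833 genes higher and blue points the 3689 genes lower in CONT SCI + SWW past the edgeR threshold of 0.05, and the falls reach further from 0 than the rises.

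The groups were also compared sample by sample. The CPM ranges of CONT SCI + SWW and CONT SCI did not overlap for 3722 genes (24.5% of those tested), 1450 with CONT SCI + SWW above and 2272 below. Of these, 3692 were also among the 6522 genes that passed the edgeR test. They made up 50.4% of the genes called higher and 61.4% of those called lower.

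Each of the 5 exercised rats carried most of the difference, as the choice of genes from these samples requires in part. Of the 2833 genes called higher, 78.7%, 83.2%, 84.3%, 85.8% and 77.3% lay above the whole CONT SCI range in CONT SCI + SWW replicates 1 to 5. Of the 3689 genes called lower, 85.9%, 82.8%, 88.3%, 84.9% and 86.5% lay below that range. No replicate fell far from the other 4 by these shares.

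The genes called higher held 21.1%, 21.1%, 21.3%, 21.9% and 21.4% of all counts in CONT SCI + SWW replicates 1 to 5, and 17.1% to 17.3% in the CONT SCI samples. The genes called lower held 27.2%, 27.2%, 27.0%, 26.5% and 27.0% in CONT SCI + SWW and 32.9% to 34.8% in CONT SCI. The direction of both differences follows from the choice of genes by these same samples. In groups outside this comparison, which entered the same fit and so its filter, scaling and spread, the genes called higher held 20.0% to 20.5% of the counts in CONT SCI + SWIM and 18.02% to 18.4% in No SCI. Those called lower held 28.5% to 29.6% in CONT SCI + SWIM and 30.7% to 32.2% in No SCI. On both measures CONT SCI + SWIM lay nearer to CONT SCI + SWW than No SCI did, without overlap. The 126 genes that fell by at least 2 were a very small part of the RNA. They held 0.0165% to 0.0286% of the counts in CONT SCI + SWW and 0.124% to 0.166% in CONT SCI, a direction that also follows from their choice.

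The spread within each group was also measured. Over 11677 genes that averaged 100 counts or more, the median coefficient of variation was 7.27% in CONT SCI + SWW (n = 5) and 9.17% in CONT SCI (n = 6), and it was 7.64% in CONT SCI + SWIM (n = 5) and 7.24% in No SCI (n = 4). Pearson's r of log2 CPM across genes, which are not independent replicates, was 0.986 to 0.992 between pairs of CONT SCI + SWW samples, 0.988 to 0.994 between pairs of CONT SCI samples, and 0.973 to 0.982 between samples of the 2 groups. Within CONT SCI + SWW, replicate 4 was the highest of the 5 in 27.8% of genes and the lowest in 24.2%, and replicate 5 was the highest in 25.3% and the lowest in 31.6%. The mean r with the rest of the group was 0.989 to 0.991 for the 5 CONT SCI + SWW samples, and that with the CONT SCI + SWIM samples was 0.987 to 0.991, so by this measure the exercise groups were not set apart. CONT SCI + SWW replicate 5 and CONT SCI + SWIM replicate 4 each had a slightly higher mean r with the other exercise group than with their own. Within either group the chi-square between any pair of samples was at least 5.83 a gene, so none looked like 1 library counted again.

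In all, 4 genes are described by identifier, the 2 largest rises and 2 largest falls among the 3388 genes that passed the edgeR test, had a mean of at least 1 on the log2 CPM scale and did not overlap between the groups. Their directions and the separation of the groups follow from that choice. Among these 3388 genes the largest fall was in ENSRNOG00000055936. It stood at 0.624, 1.09, 0.701, 0.834 and 0.631 CPM in CONT SCI + SWW replicates 1 to 5, and at 49.2 to 86.0 CPM in CONT SCI, with a median of 59.4 (n = 6). All 5 exercised samples were near the low end of what was measured, with 17 to 33 counts each. The means were 0.777 ± 0.196 CPM (SD, n = 5) and 65.1 ± 14.99 CPM (SD, n = 6), and the log2 fold change was -6.38 (standard error 0.19, adjusted p = 9.13e-16 by edgeR's quasi-likelihood test).

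ENSRNOG00000004757 had the next largest fall among them. It stood at 0.555, 0.630, 0.206, 0.981 and 0.140 CPM in CONT SCI + SWW replicates 1 to 5, which were 16, 19, 5, 20 and 4 counts, and at 22.2 to 42.5 CPM in CONT SCI, with a median of 28.4 (n = 6). The exercised samples differed among themselves, with replicates 3 and 5 the lowest, but at so few counts this spread includes counting error. The log2 fold change was -5.91 (standard error 0.26, adjusted p = 2.63e-13 by edgeR's quasi-likelihood test).

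Both genes followed the same order in the groups outside the comparison. ENSRNOG00000055936 was at 52.8 to 69.0 CPM in No SCI, at 0.577 to 0.968 CPM in CONT SCI + SWIM and at 0.815 to 1.43 CPM in TX SCI. ENSRNOG00000004757 was at 21.9 to 26.8 CPM in No SCI, at 0.423 to 0.991 CPM in CONT SCI + SWIM and at 0.911 to 1.46 CPM in TX SCI. Each was thus high in every sample collected at 11.5 weeks, with or without injury, and low in every sample collected at 8.5 or 13.5 weeks, with or without exercise. Low levels were thus also found in TX SCI rats, which did not exercise but had another injury and another collection time. Every rat collected at 13.5 weeks was exercised and every one at 8.5 weeks was transected. The cause of the low levels was not tested. The difference between CONT SCI + SWW and CONT SCI + SWIM did not pass for ENSRNOG00000055936 (log2 fold change -0.10, standard error 0.32, adjusted p = 0.897 by edgeR) or for ENSRNOG00000004757 (-0.47, standard error 0.41, adjusted p = 0.572 by edgeR). Between CONT SCI + SWW and TX SCI the difference was -0.65 for the first gene (standard error 0.29, adjusted p = 0.105 by edgeR over 24 samples) and -1.18 for the second (standard error 0.36, adjusted p = 0.0215).

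Among the same 3388 genes the largest rise was in ENSRNOG00000061299. Larger rises were found in genes that had a lower level or overlapped between the groups. It stood at 7.97, 13.6, 11.4, 27.9 and 17.99 CPM in CONT SCI + SWW replicates 1 to 5, and at 2.76 to 6.31 CPM in CONT SCI, with a median of 3.78 (n = 6). Replicate 1 was closest to the CONT SCI range and replicate 4 was farthest above it. The means were 15.8 ± 7.69 CPM (SD, n = 5) and 4.08 ± 1.32 CPM (SD, n = 6), and the log2 fold change was 1.95 (standard error 0.31, adjusted p = 3.9e-05 by edgeR's quasi-likelihood test). ENSRNOG00000058105 stood at 21.5, 35.3, 32.6, 68.4 and 47.7 CPM in CONT SCI + SWW replicates 1 to 5, and at 7.52 to 17.0 CPM in CONT SCI, with a median of 10.3 (n = 6). The replicates stood in the same order as for ENSRNOG00000061299. Its log2 fold change was 1.91 (standard error 0.30, adjusted p = 2.71e-05 by edgeR's quasi-likelihood test).

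The counts of these 2 genes moved together. The level of ENSRNOG00000061299 was 0.315 to 0.409 of that of ENSRNOG00000058105 in all 24 samples, with a median of 0.369, although both levels varied widely. Whether they share reads or overlap cannot be examined from counts, so they are not 2 separate observations. ENSRNOG00000061299 was at 4.24 to 8.14 CPM in No SCI, at 5.91 to 20.4 CPM in CONT SCI + SWIM and at 20.1 to 103 CPM in TX SCI. ENSRNOG00000058105 was at 12.0 to 23.97 CPM in No SCI, at 16.7 to 55.9 CPM in CONT SCI + SWIM and at 49.2 to 326 CPM in TX SCI. Both had their highest group mean in TX SCI, but the lowest TX SCI sample was below the highest CONT SCI + SWW and CONT SCI + SWIM samples. CONT SCI + SWW was below TX SCI by -1.89 on the log2 scale for ENSRNOG00000061299 (standard error 0.37, adjusted p = 0.00108 by edgeR) and by -2.07 for ENSRNOG00000058105 (standard error 0.39, adjusted p = 0.000755 by edgeR). The difference between CONT SCI + SWW and CONT SCI + SWIM was 0.05 for ENSRNOG00000061299 (standard error 0.31, adjusted p = 0.95 by edgeR), and for ENSRNOG00000058105 its standard error was 0.30 (adjusted p = 1 by edgeR).

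**Figure D2:**
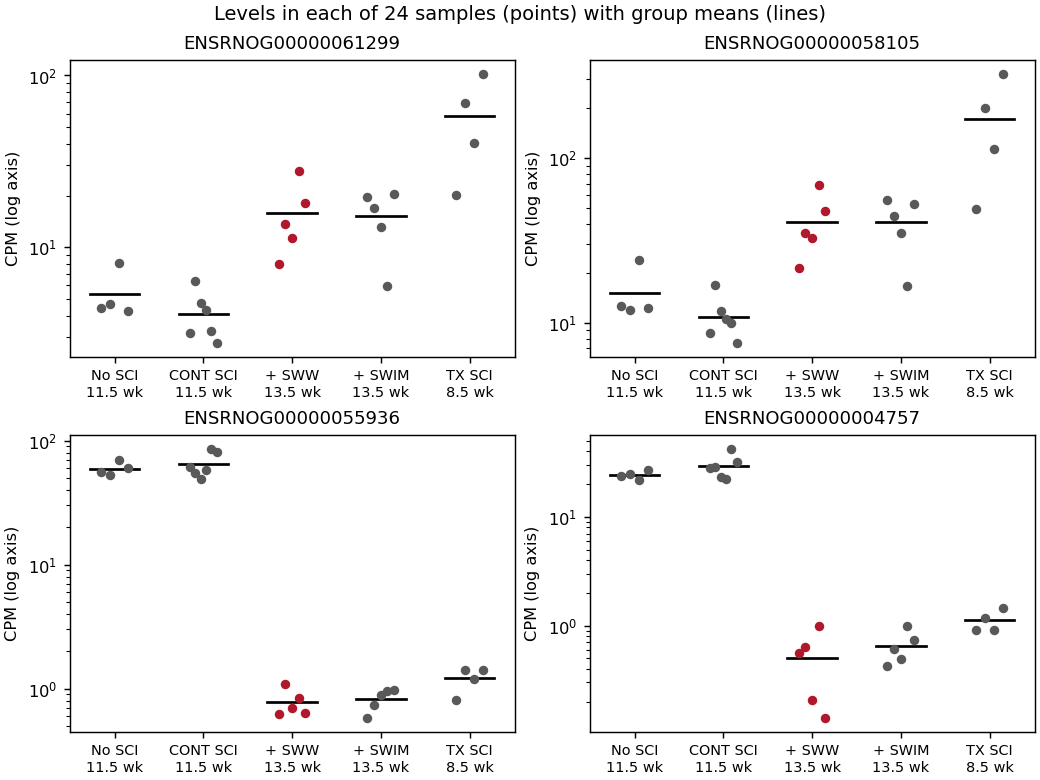
CPM on a log axis of the 2 largest rises (upper panels) and 2 largest falls (lower panels) among genes of sufficient level that did not overlap between CONT SCI + SWW and CONT SCI, in each of 24 samples (points) by group, with group means (lines). CONT SCI + SWW is in red, and both lower panels show No SCI and CONT SCI above 20 CPM and the other 3 groups under 2 CPM.

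The genes that changed after shallow water walking were next followed in comparisons that use none of its samples or controls. CONT SCI + SWIM against No SCI shares no sample with CONT SCI + SWW against CONT SCI, and 4262 of 15179 genes differed in it (28.1%, edgeR). In 2773 genes both comparisons passed, which was 42.5% of the genes called for CONT SCI + SWW and 65.1% of those called for CONT SCI + SWIM. Of these genes, 2315 had the same sign (83.5%) and 458 had opposite signs, beside 61.9% of all 15179 genes with the same sign. Over all 15179 genes the log2 fold changes had r = 0.62 (Spearman's rho 0.33) as a description across genes, which are not independent replicates, and the points share a fit and its spread. Swimming against No SCI includes the injury, and walking against CONT SCI does not.

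The overlap was uneven between rises and falls, and for falls the share rose with their size. Of the 126 genes that fell by at least 2 after walking, 122 were lower in CONT SCI + SWIM than in No SCI (96.8%, beside 16.1% of all genes tested), with a median log2 fold change of -2.62. All 57 that fell by at least 3 were among the genes lower in that comparison, with a median of -3.78. Of the 356 genes that fell by 1 to 2, 205 were lower (57.6%) and 66 were higher (18.5%, beside 12.0% of all genes tested), and of the 2152 that fell by less than 0.5, 704 were lower (32.7%) and 180 higher (8.36%). Of the 35 genes that rose by at least 2, 10 were higher in CONT SCI + SWIM than in No SCI (28.6%, beside 12.0% of all genes tested) and 25 did not pass the test. The median of these 35 genes was 0.56, and 88.6% of them were above 0, beside 52.4% of all genes tested. Of the 2312 genes that rose by less than 0.5, 701 were higher (30.3%), with a median of 0.11. The share was 19.4% of the 377 genes that rose by 0.5 to 1 (median 0.12) and 33.0% of the 109 that rose by 1 to 2 (median 0.44). For rises the median was thus larger in the larger classes, and the share called showed no steady order.

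TX SCI against No SCI, which also shares no sample with the walking comparison, contains no exercise. In it 5717 of 15247 genes differed (37.5%, edgeR over 24 samples). Among the 15163 genes tested in both, 3163 passed in both, 48.5% of those called for walking and 55.7% of those called for transection. The signs were the same for 2462 of these (77.8%), beside 61.5% of all 15163 genes, and r across genes was 0.49 (Spearman's rho 0.33). Of the 124 genes tested that fell by at least 2 after walking, 120 were lower in TX SCI than in No SCI (96.8%, beside 19.1% of all genes), with a median of -2.26. Of the 35 that rose by at least 2, 15 were higher (42.9%, beside 18.4% of all genes), 1 was lower (2.86%, beside 19.1%) and 19 did not pass the test. The median of the 35 was -0.37. Their median level in CONT SCI was -1.59 log2 CPM, which is low in part because they were chosen for a rise from CONT SCI. Nearly all of the large falls were thus also found in TX SCI, whose rats did not exercise but had a complete transection. Each of the 3 groups was collected at another time than its control, so collection time cannot be told apart from exercise or transection. Nor can a library batch, which the labels do not give, and the cause of the falls was not tested.

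**Figure D3:**
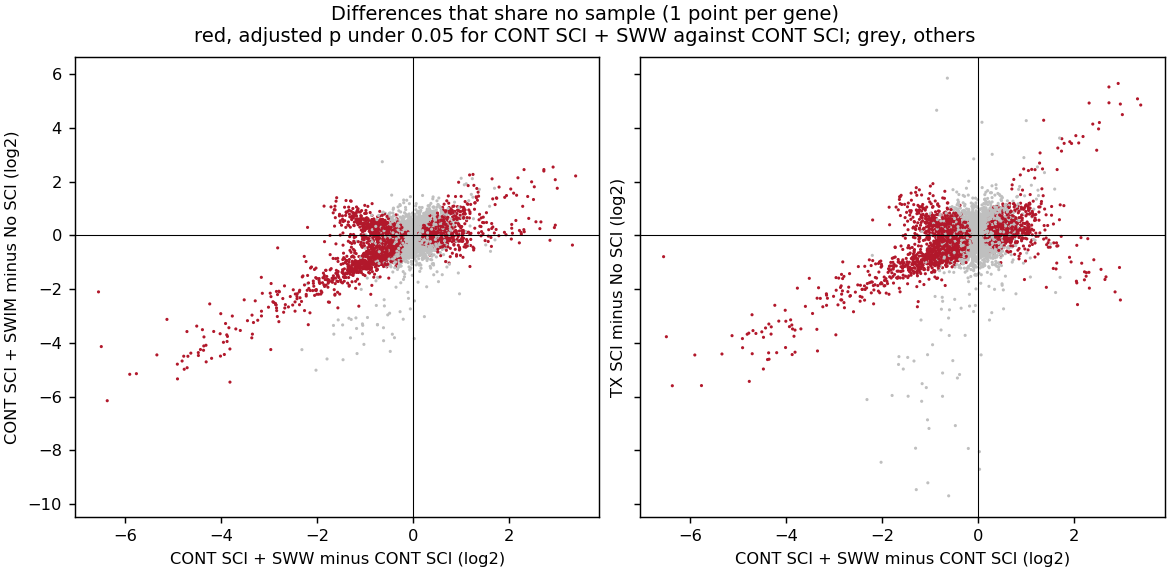
Log2 fold change of CONT SCI + SWW against CONT SCI for each gene (points, horizontal axes) against that of CONT SCI + SWIM (left) and TX SCI (right) against No SCI, comparisons that share no sample with it. Red points are genes with an adjusted p under 0.05 for CONT SCI + SWW against CONT SCI, and the largest falls lie in the lower left of both panels.

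Shallow water walking was then compared with swimming, which was collected at the same 13.5 weeks, so that time does not differ. Of 15179 genes, 454 differed between CONT SCI + SWW and CONT SCI + SWIM (2.99%) past the same edgeR threshold, with 49 higher in CONT SCI + SWW (0.323%) and 405 lower (2.67%). The test is also that of whether their differences from CONT SCI were unequal, since CONT SCI cancels. The changes were small, with a median log2 fold change of 0.27 for the genes higher and -0.35 for those lower, and a range of -1.14 to 1.10. A change of at least 0.5 was reached by 6 genes higher and 92 lower. The ranges of the 5 walking and 5 swimming samples did not overlap for 1042 genes (6.86%), including 351 of the 405 lower and 36 of the 49 higher. The median level was 5.51 log2 CPM over the 405 genes lower and 4.99 over the 49 higher. The count depended on single libraries. It was 123 without CONT SCI + SWIM replicate 3, 149, 187 and 207 without CONT SCI + SWW replicates 4, 2 and 3, 214 without CONT SCI + SWIM replicate 2, and 811 without CONT SCI + SWW replicate 5. With all samples it was 821 by DESeq2's Wald test.

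Most genes that were lower after walking than after swimming also separated contusion from no injury. CONT SCI against No SCI, both collected at 11.5 weeks and neither exercised, shares no sample with walking against swimming, and 1758 of 15179 genes differed in it (11.6%, edgeR). This list was not examined under the alternatives, and it includes CONT SCI replicate 4, which stood apart from its group in some measures. Of the 454 genes, 375 were among the 1758 (82.6% of the 454 and 21.3% of the 1758). All 375 had the opposite sign in the 2 comparisons, where 30.6% of all 15179 genes had the same sign. The 375 were 363 of the 405 genes lower after walking and 12 of the 49 higher, so most of the higher ones were not among them. Both lists depended on single libraries, and the overlap is given with all samples only. Without CONT SCI + SWIM replicate 3, 122 genes were lower and 1 was higher. Without CONT SCI + SWW replicate 4 the counts were 149 and 0, and without CONT SCI + SWIM replicate 4 they were 459 and 123. Seen from the other side, 1216 genes were higher in CONT SCI than in No SCI, and of these 363 were lower in walking than in swimming rats (29.9%, beside 2.67% of all genes). Their median log2 difference between walking and swimming was -0.23, beside 0.01 over all genes, and 96.5% of them were below 0, beside 47.3% of all genes. The 542 genes lower in CONT SCI than in No SCI had a median of 0.17, with 10.7% below 0, and 12 of them were called higher in walking rats (2.21%, beside 0.323%). Across all 15179 genes r was -0.40 (Spearman's rho -0.49), again as a description across genes from 1 fit. Most genes that were raised in contused rats without exercise thus had lower estimates in rats that walked than in rats that swam, and fewer than 1 in 3 passed the test.

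The samples showed this one by one. For the 1216 genes raised in CONT SCI, chosen by a difference between unexercised groups in a fit whose filter, scaling and spread also used the exercised samples, the median log2 deviation from the mean of the 10 exercised samples was -0.07, -0.15, -0.11, -0.20 and -0.06 in CONT SCI + SWW replicates 1 to 5. It was 0.08, 0.12, 0.24, 0.06 and 0.10 in CONT SCI + SWIM replicates 1 to 5. Every walking rat lay below every swimming rat, with CONT SCI + SWIM replicate 3 the highest and CONT SCI + SWW replicate 4 the lowest, and over all genes the median deviation of a sample was between -0.02 and 0.03. For the 542 genes lowered in CONT SCI, the deviations were 0.04, 0.13, 0.08, 0.20 and -0.01 in CONT SCI + SWW replicates 1 to 5 and -0.06, -0.09, -0.30, 0.02 and -0.00327 in CONT SCI + SWIM replicates 1 to 5. Here the groups overlapped, with CONT SCI + SWW replicate 5 among the swimming values and CONT SCI + SWIM replicates 4 and 5 among the walking values. The labels give no library batch for the 2 exercise groups, and its part in the difference was not tested.

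**Figure D4:**
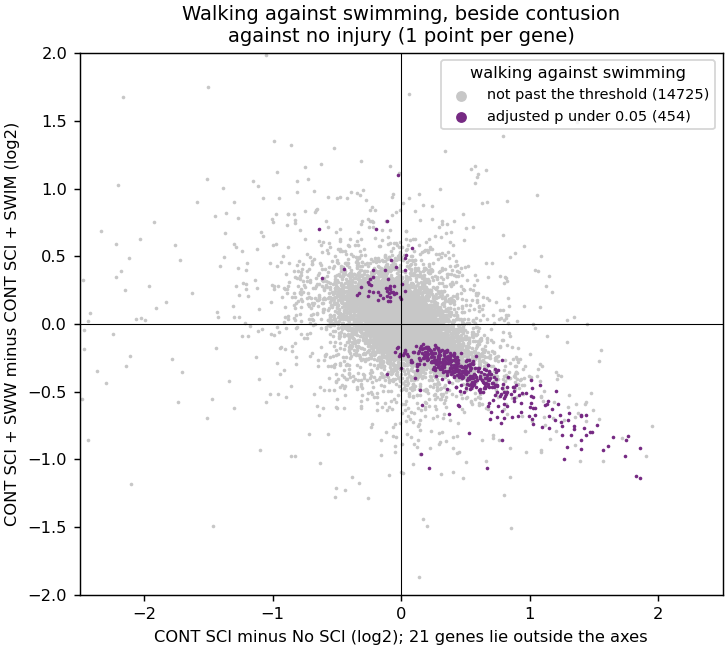
Log2 fold change of CONT SCI + SWW against CONT SCI + SWIM for each gene (points, vertical axis) against that of CONT SCI against No SCI (horizontal axis), with 21 genes outside the axes. Purple points are the 454 genes with an adjusted p under 0.05 between walking and swimming (edgeR), most of which lie at the lower right, higher in CONT SCI and lower after walking.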

How the data were processed

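The authors aligned reads to rn6, and counted them per Ensembl gene with HTSeq 0.10.0, using strand and leaving out mitochondrial genes. FastQC 0.10.1 was used for read quality. They deposited whole-number counts without normalization for 24613 genes, of which 20189 had a count, and all 24 columns were matched to samples by name. Reads shared by near-identical or overlapping genes are uncertain in such counts.

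R 4.3.3, edgeR 4.0.16 and DESeq2 1.42.0 were used. The 20 samples of No SCI, CONT SCI, CONT SCI + SWIM and CONT SCI + SWW entered 1 fit (filterByExpr, minimum count 10, minimum total 15, TMM, glmQLFit and glmQLFTest), and p-values were adjusted over the 15179 genes tested by Benjamini-Hochberg, with 0.05 as the threshold. Values with TX SCI come from a fit of 24 samples over 15247 genes. Standard errors were taken as the size of the log2 fold change over the root of F. The test was checked on simulated counts. Library measures were compared by exact permutation.

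Genes were to be named as the 12 largest rises and falls with a symbol and members of fixed lists, or without symbols as the 2 largest rises and 2 largest falls by identifier. The annotation at hand (GRCr8, 47357 genes) carries 0 Ensembl identifiers, so the fallback was used and no list or marker was analysed. The members and lists were chosen with earlier results of these data known. The classes by size, the comparisons that share no sample and the deviations on genes of CONT SCI against No SCI were chosen after seeing the data.

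Alternatives were RLE factors, DESeq2, other filters, fits of fewer or more groups, a block on the replicate number and a threshold of 0.01. Each sample of the groups compared was also left out in turn. Thinned libraries, 2 replicates numbered 4 left out together, and CONT SCI replicates 4 and 6 left out together were added after seeing the data.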

Additional observations from a re-analysis of the deposited data

Results flagged for a closer look

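In 38 sets of values within a group, about 1.9 would be expected to hold a sample far from the others by chance, and 6 did. No SCI replicate 3 had 8.14 CPM of ENSRNOG00000061299, where the rest of No SCI had 4.24 to 4.64, and 23.97 CPM of ENSRNOG00000058105, against 12.0 to 12.7. These 2 genes move together, so this is 1 observation.

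CONT SCI replicate 4 held 2.61% of its counts in the gene with the most counts, where the rest of CONT SCI held 1.52% to 1.74%, had a mean r of 0.989 with them, against 0.991 to 0.992 among the others, and held 34.8% of its counts in the genes called lower in CONT SCI + SWW, against 32.9% to 33.6%. CONT SCI + SWW replicate 4 held 26.5% in these genes, against 27.0% to 27.2%. These samples helped to choose the genes of the last measure. With both libraries left out, 6260 genes differed between CONT SCI + SWW and CONT SCI, 5665 of them among the 6522 called with all samples, and 371 between CONT SCI + SWW and CONT SCI + SWIM.

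The exercise groups differed from each other at 454 genes by edgeR's quasi-likelihood test of the difference itself.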

How the results depend on the processing

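The count for CONT SCI + SWW against CONT SCI lay between 4617 and 6723 under 22 alternatives, and between 5917 and 6723 with each of 11 samples left out in turn. At an adjusted p under 0.01, 1765 genes were higher. The 4 genes given by identifier kept their sign and stayed under an adjusted p of 0.05 in all 22 (edgeR or DESeq2, highest 0.00075, 0.00056, 1.47e-10 and 5.59e-09).

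The count for walking against swimming was less stable. DESeq2 called 821 genes (160 higher, 661 lower). At an adjusted p under 0.01 edgeR called 105, with 0 higher and 105 lower, where 1260 were higher and 1603 lower at an unadjusted p under 0.05. The count higher was 22 without a filter on low counts and 89 with only these groups in the fit. Each of the 10 walking and swimming samples was left out in turn. The total then ranged from 123 to 811, the count higher from 0 (without CONT SCI + SWW replicate 4) to 123, and the count lower from 122 to 697. Of the alternatives added after seeing the data, leaving out replicate 4 of CONT SCI and of CONT SCI + SWW gave 21 higher, and leaving out CONT SCI replicates 4 and 6, of which only 4 stood apart in a library measure, gave 811 (158 higher, 653 lower). The causes were not tested.

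With the replicate block, 251 genes differed between walking and swimming (13 higher, 238 lower) and 5924 between walking and CONT SCI. The numbers name different rats. The deviations of same-numbered samples correlated from -0.05 to 0.13 for walking and CONT SCI and from -0.12 to 0.09 for walking and swimming, and not every sample correlated best with its own number. Depth limits genes with few counts, where the error was largest.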
